A study of Bos taurus with 48 samples.

Results

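ZAR1, NLRP5, H1FOO and YBX2 were 4 of the 24616 genes listed for bovine cumulus-oocyte complexes (COCs). They were taken by name as maternal-effect and maternal mRNA storage genes, with the identifiers ENSBTAG00000004886 for ZAR1, ENSBTAG00000013247 for NLRP5, ENSBTAG00000001812 for H1FOO and ENSBTAG00000009126 for YBX2. Each was followed in every oocyte, innerCC and outerCC library, and the 4 genes were compared with each other between oocytes.

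A growing oocyte makes and stores mRNAs and proteins that the embryo uses before its own genome is transcribed. YBX2 is a Y-box protein of germ cells that binds mRNA and keeps it stable and untranslated, and ZAR1 is an RNA-binding protein of oocytes that takes part in holding maternal mRNAs. NLRP5 (also called MATER) is a component of the subcortical maternal complex, a protein assembly under the oocyte membrane that the first cleavages need. H1FOO is the linker histone of the oocyte, which is replaced by somatic H1 histones as the embryo develops.

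The samples were taken from Bos taurus ovaries obtained at a slaughterhouse, and the COCs were chosen for a homogeneous cytoplasm and many layers of cumulus cells. Each of 16 COCs was dissected with trypsin into the outer cumulus cells (outerCCs), the cumulus cells nearest the oocyte (innerCCs) and the denuded oocyte, so that 3 libraries share a COC number. No sample was treated, genotypes and the ages of the cows were not given in the sources used here, and neither was the number of animals behind the COCs. Oocytes were lysed directly, RNA was extracted from the cumulus cells, and polyA+ RNA was amplified with SMART-seq2, so the type of sample and the way its RNA was released cannot be told apart. Oligo-dT priming takes up polyadenylated RNA, and a difference between oocytes may be one of amount or of tail length, which these values cannot tell apart.

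Expression is given in FPKM, fragments scaled by transcript length and by the mapped fragments of the library. Levels of different genes were set side by side in this unit. The unit does not correct for tail length, amplification or reads lost between near-identical gene copies. The number of genes over 0.5 FPKM ranged from 8525 to 11340 in oocytes, from 648 to 10295 in innerCCs and from 9054 to 11851 in outerCCs. Fragment counts were not used here. A relative depth, taken from the spacing of the lowest FPKM values, ranged from 0.438 to 7.75 in oocytes and from 0.0973 to 1.47 in cumulus libraries (the median library is at 1). COCs 176 to 184 and COCs 185 to 192 (8 COCs each) had parted by the number of genes in their innerCC libraries, and values within these sets are given beside the pooled ones although they are not conditions of the study. As a check of the sample types, the cumulus marker INHA, a subunit of inhibin, was at 17.96 FPKM or less in 15 oocytes and at 109 FPKM in the oocyte of COC 191, where its partner INHBA was at 51.4 FPKM. Of the 4 cumulus markers that could be matched, INHA, INHBA and CYP19A1 were lower in oocytes than in outerCCs, and CD44, whose symbol came from the study's table of genes found in oocytes alone, was higher (means of 2.65 and 0.0796 FPKM).

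All 4 genes were detected in all 16 oocytes. H1FOO had the highest level, from 45.2 FPKM in the oocyte of COC 180 to 609 FPKM in that of COC 188, with a median of 354 FPKM and a mean of 330 ± 183 FPKM (SD, n = 16). ZAR1 ranged from 33.4 FPKM in COC 181 to 405 FPKM in COC 190, with a median of 72.7 FPKM and a mean of 110 ± 99.9 FPKM (SD, n = 16). The 2 highest ZAR1 values, in COCs 190 and 186, and those of COCs 180 and 184 stood above the other 12 oocytes, which lay at 84.1 FPKM or lower.

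YBX2 ranged from 28.0 FPKM in COC 181 to 181 FPKM in COC 190 around a median of 49.8 FPKM. Its lowest and highest oocytes were those of ZAR1. NLRP5 was the lowest of the 4, from 14.8 FPKM in COC 183 to 105 FPKM in COC 186, with a median of 29.3 FPKM and a mean of 37.2 ± 24.0 FPKM (SD, n = 16). Even the lowest of these values stood on many fragments, since reading the fragments from the FPKM steps gave 152 or more in every oocyte for every one of the 4 genes.

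**Figure D1:**
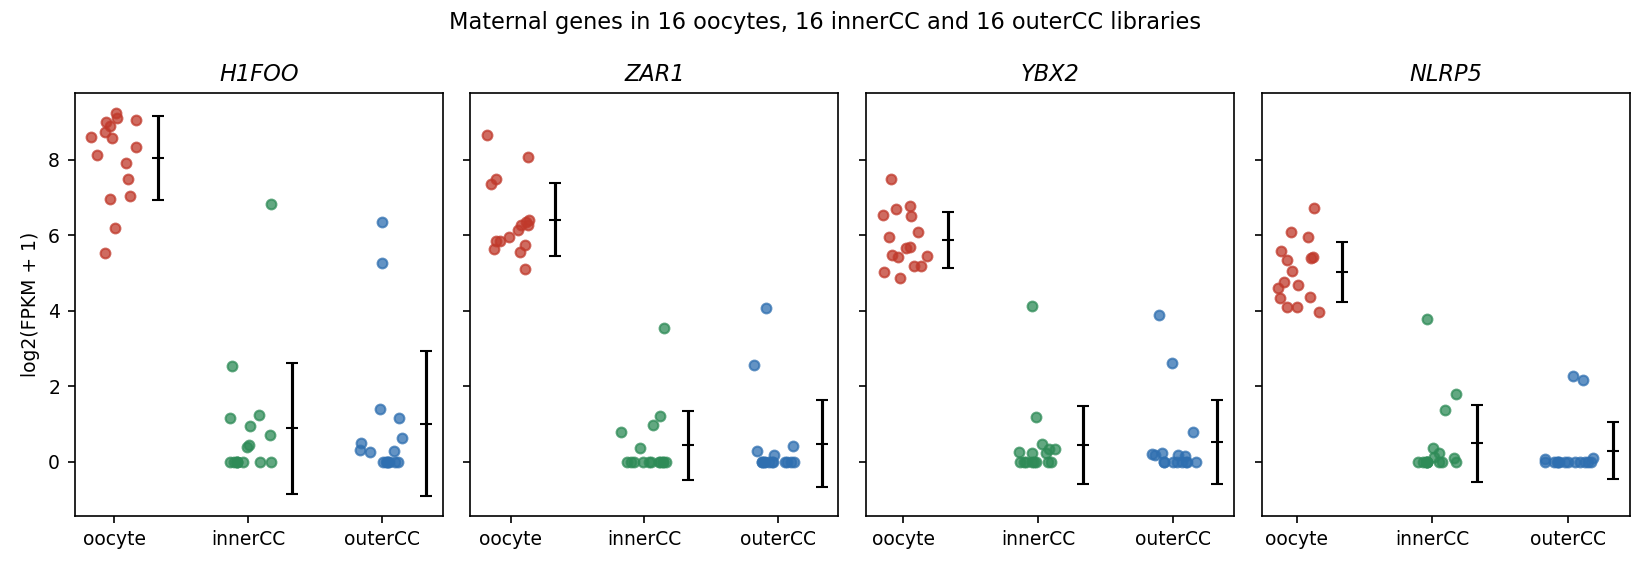
Level of each gene in every library, as log2(FPKM + 1), for oocytes (red), innerCCs (green) and outerCCs (blue), 16 libraries each. Black bars are the mean and SD. The oocytes sit above the cumulus libraries, and H1FOO has 2 oocytes (72.0 and 45.2 FPKM) that overlap single cumulus libraries (113 and 81.6 FPKM).

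The order H1FOO, ZAR1, YBX2, NLRP5 was tested within oocytes on log2(FPKM + 1) with exact two-sided sign-flip permutations, adjusted over 3 steps of the order. The order was itself taken from the mean levels in these same oocytes, so the tests are not independent of it. H1FOO exceeded ZAR1 by 1.63 ± 1.71 (mean difference and SD, log2 scale) and was higher in 13 of 16 oocytes (adjusted exact p = 0.0029). ZAR1 exceeded YBX2 by 0.55 ± 0.42 in 15 of 16 oocytes, and YBX2 exceeded NLRP5 by 0.84 ± 0.60 in 13 of 16 (adjusted exact p = 0.000366 for both). All 3 steps passed the threshold, although the mean difference of H1FOO and ZAR1 was smaller than its SD and 3 oocytes had the reverse order.

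H1FOO and ZAR1 did not keep a fixed proportion. The ratio of H1FOO to ZAR1 FPKM ran from 0.254 in COC 180 to 14.4, a 56.5-fold range over the 16 oocytes, whereas ZAR1 to YBX2 ran from 0.844 to 2.61, a 3.096-fold range. H1FOO was below ZAR1 in the oocytes of COCs 180, 184 and 190, and those same 3 oocytes had the lowest sums of FPKM over all genes (367112, 471322 and 410999, with the other oocytes at 526942 or higher). Whether the low sums bear on the reversed order was not tested.

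The 4 genes differed in their spread between oocytes. The SD of log2(FPKM + 1) was 1.12 for H1FOO, 0.98 for ZAR1, 0.80 for NLRP5 and 0.75 for YBX2, against a median SD of 0.64 over the 10327 genes detected in oocytes. H1FOO varied more than 92.9% of those genes, ZAR1 more than 86.8%, NLRP5 more than 71.7% and YBX2 more than 65.6%. Among genes within 2-fold of its own mean level, H1FOO varied more than 95.3% of 613 genes. The counting error of the estimated fragments was an SD of at most 0.117, and the other technical error of a single amplified cell was not measured.

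Levels also differed between the COC sets, with overlapping ranges. The median of H1FOO was 206 FPKM in the oocytes of COCs 176 to 184 and 407 FPKM in those of COCs 185 to 192. NLRP5 had medians of 19.5 and 44.6 FPKM, ZAR1 of 54.5 and 76.6 FPKM and YBX2 of 38.7 and 64.3 FPKM in these sets. Since the sets were drawn from the data, these are given as values with no test.

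In cumulus cells the 4 transcripts were at or near 0 in most libraries. The median over 16 innerCCs was 0 FPKM for ZAR1 and NLRP5, 0.15 FPKM for H1FOO and 0.0849 FPKM for YBX2, and the median over 16 outerCCs was 0 for ZAR1 and NLRP5, 0.21 for H1FOO and 0.0595 for YBX2. By set, H1FOO was above 0 in 1 of 8 innerCCs of COCs 176 to 184 and in 7 of 8 of COCs 185 to 192 (medians of 0 and 1.07 FPKM). YBX2 was above 0 in 1 and in 7 (medians of 0 and 0.268 FPKM), NLRP5 in 2 and in 5, and ZAR1 in 1 and in 4. The sets were drawn by the number of genes in these same innerCC libraries, so more detection in COCs 185 to 192 was already given. ZAR1 was listed at 0 in 22 of 32 cumulus libraries, NLRP5 in 21, YBX2 in 16 and H1FOO in 15. Many of the remaining values were worth a single fragment by the FPKM steps, namely 2 libraries for ZAR1, 5 for NLRP5, 9 for H1FOO and 12 for YBX2. A cumulus library pools many cells, and fewer cells carrying a transcript and less of it per cell cannot be told apart.

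**Figure D2:**
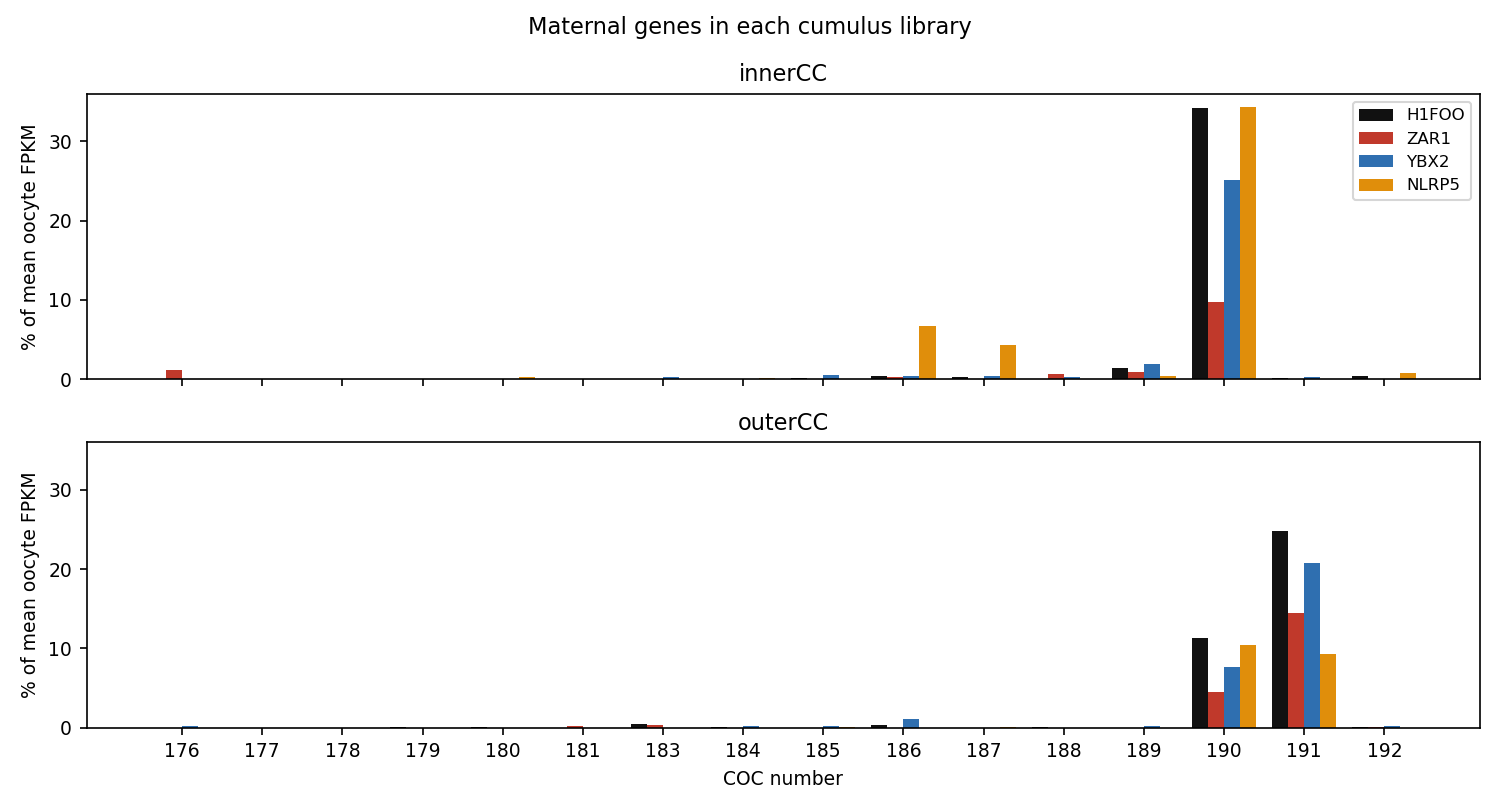
Level of each gene in each innerCC (upper) and outerCC (lower) library as a percent of its mean FPKM over the 16 oocytes. The innerCCs of COC 190 (9.73 to 34.3%), the outerCCs of COC 190 (4.46 to 11.3%) and the outerCCs of COC 191 (9.30 to 24.7%) stand apart, and the other 29 libraries reach 6.67% at most.

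A small number of cumulus libraries carried all 4 transcripts at high level. In the innerCCs of COC 190, H1FOO was at 113 FPKM, YBX2 at 16.6, NLRP5 at 12.8 and ZAR1 at 10.7 FPKM, which is 34.2%, 25.1%, 34.3% and 9.73% of the mean oocyte. The outerCCs of the same COC held 37.3, 5.10, 3.87 and 4.90 FPKM of these genes in that order, and the outerCCs of COC 191 held 81.6, 13.8, 3.46 and 15.9 FPKM. The NLRP5 of the COC 190 innerCCs was 19.1% of the level in their own oocyte, and the H1FOO was 62.8% of it.

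These libraries differed in their levels of other genes detected in oocytes alone. Of 471 genes detected in oocytes alone at a mean of at least 10 FPKM, 97.9% were over 0.5 FPKM in the outerCCs of COC 191, with a median of 21.0% of the mean oocyte level. There 95.1% of them reached the share of NLRP5, 80.9% that of ZAR1, 50.7% that of YBX2 and 34.0% that of H1FOO. In the innerCCs of COC 190 the median of these genes was 1.60%, and only 14.6% of them reached the share of ZAR1, 8.49% that of YBX2 and 7.22% that of NLRP5 and of H1FOO. GDF9, an oocyte growth factor, was at 186 FPKM in the outerCCs of COC 191 and at 12.5 FPKM in the innerCCs of COC 190. The part of oocyte RNA in these values was not tested.

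Single genes also appeared apart from the others. NLRP5 was at 2.48 and 1.59 FPKM in the innerCCs of COCs 186 and 187, read as about 23.5 and 15.02 fragments, while ZAR1, H1FOO and YBX2 had 0 to 2.96 fragments there. The innerCCs of COC 189 carried 13.1 fragments of H1FOO, 6.04 of YBX2, 4.19 of ZAR1 and 2.00 of NLRP5. Whether these values differ beyond counting error was not tested.

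Between sample types, limma on log2(FPKM + 1) tested 12428 genes with an FPKM over 0.5 in 8 or more of the 16 samples of at least 1 sample type, at a Benjamini-Hochberg FDR under 0.01. The 4 genes passed that filter only through the oocytes, where they are high, so the direction of their difference was already set by the filter and their differences are given as values with no p. The share of genes called higher in oocytes than in outerCCs was 43.4% and lower 34.3% (34.2% and 45.4% after scaling libraries to the same 75th percentile), and 63.2% were called higher and 4.53% lower in oocytes than in innerCCs. The median over all genes was 0.25 for oocytes against outerCCs and became -0.28 with that scaling. For oocytes against innerCCs the median was 1.47 and became 0.66. The values of the 4 genes lie above these medians, which the filter made likely, so their place is not read as a result.

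H1FOO was higher in oocytes than in outerCCs by 7.05 ± 0.51 (log2 fold change and SE) and than in innerCCs by 7.17 ± 0.50. ZAR1 was higher by 5.95 ± 0.35 and 5.99 ± 0.33. For YBX2 the differences were 5.36 ± 0.32 and 5.42 ± 0.31, and for NLRP5 4.75 ± 0.26 and 4.55 ± 0.32. Each gene was higher in the oocyte than in either cumulus sample of its own COC in 16 of 16 COCs. For ZAR1, YBX2 and NLRP5 every oocyte was above every cumulus library, and for H1FOO 14 of 16 oocytes were. These differences depend on the scale. With a pseudocount of 0.1 NLRP5 differed by 7.58 and H1FOO by 9.11 from outerCCs, and the ratio of mean FPKM, in which COCs 190 and 191 weigh more, was 80.04 for NLRP5 and 42.8 for H1FOO.

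Leaving out COCs 190 and 191 raised the H1FOO difference to 7.72 against outerCCs and 7.55 against innerCCs. The mean H1FOO level in innerCCs fell from 7.66 to 0.64 FPKM without COC 190, and the mean ZAR1 level in outerCCs fell from 1.34 to 0.0489 FPKM without COCs 190 and 191. In outerCCs without both COCs, H1FOO was at 0.32 ± 0.50 FPKM and YBX2 at 0.10 ± 0.19 FPKM (SD, n = 14).

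The innerCCs and outerCCs were then compared with each other. By limma, 9620 genes (77.4%) were called lower in innerCCs and 0 higher (4 with the COC number as a block), and the lower calls fell to 4 with the number of genes as a covariate and to 190 in COCs 185 to 192. Without adjustment, 10346 genes were lower and 4 higher at a p under 0.05. None of the 4 genes was called, with differences (innerCC minus outerCC) of -0.04 ± 0.36 for ZAR1, 0.20 ± 0.31 for NLRP5, -0.12 ± 0.63 for H1FOO and -0.06 ± 0.37 for YBX2 (log2 and SE; limma adjusted p = 0.924, 0.572, 0.869 and 0.884). These values stand on few fragments, and the size of difference that could have been detected was not tested.

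Covariation between oocytes was then measured on log2(FPKM + 1) for the 6 pairs of the 4 genes over 16 oocytes, with 100000 permutations and adjustment over the 6 pairs. The 3 pairs among ZAR1, YBX2 and NLRP5 passed the threshold, those with NLRP5 less stably, and the 3 pairs with H1FOO did not pass it unless the oocytes were adjusted as described further on. ZAR1 and YBX2 gave the highest r, with r = 0.914 (permutation p = 1e-05, the smallest that the permutations can give, adjusted 6e-05) and Spearman's rho = 0.903. Without the oocytes of COCs 186 and 190, the 2 farthest from the ZAR1 median, r was 0.859. With each oocyte left out in turn, that of COC 191 with its cumulus markers included, r lay between 0.867 and 0.949. Within COCs 176 to 184 it was 0.965 and within COCs 185 to 192 it was 0.869 (8 oocytes each, adjusted exact permutation p = 0.00714 and 0.0219).

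For this pair, only 0.368% of the other 10326 genes detected in oocytes had as high an r with ZAR1, and 0.0968% had as high an r with YBX2. NLRP5 and YBX2 gave r = 0.702 (adjusted permutation p = 0.00801) and rho = 0.765, with r = 0.561 without COCs 186 and 190. Within the sets r was 0.641 and 0.644, neither past the threshold over 8 oocytes (adjusted exact permutation p = 0.168 and 0.159). Of the other genes, 7.002% had as high an r with NLRP5 and 6.62% as high an r with YBX2.

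ZAR1 and NLRP5 gave r = 0.641 (adjusted permutation p = 0.0149) and rho = 0.656 (adjusted permutation p = 0.0149). Without COCs 186 and 190 r was 0.307 (permutation p = 0.29, 14 oocytes), so its size depended on those 2 oocytes. Leaving them out also narrows the range of ZAR1, so this fall cannot show whether the relation rests on them. Other treatments gave a higher r, 0.753 without COCs 180, 184 and 190 (adjusted permutation p = 0.0054) and 0.720 with the number of genes partialled out (adjusted permutation p = 0.00268). Within the sets r was 0.632 and 0.620 (adjusted exact permutation p = 0.168 and 0.159). With linear FPKM both NLRP5 pairs missed the threshold (adjusted permutation p = 0.0538). Among oocytes left out singly, that of COC 186 was the one without which ZAR1 and NLRP5 lost the call (r = 0.526, adjusted permutation p = 0.0812).

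**Figure D3:**
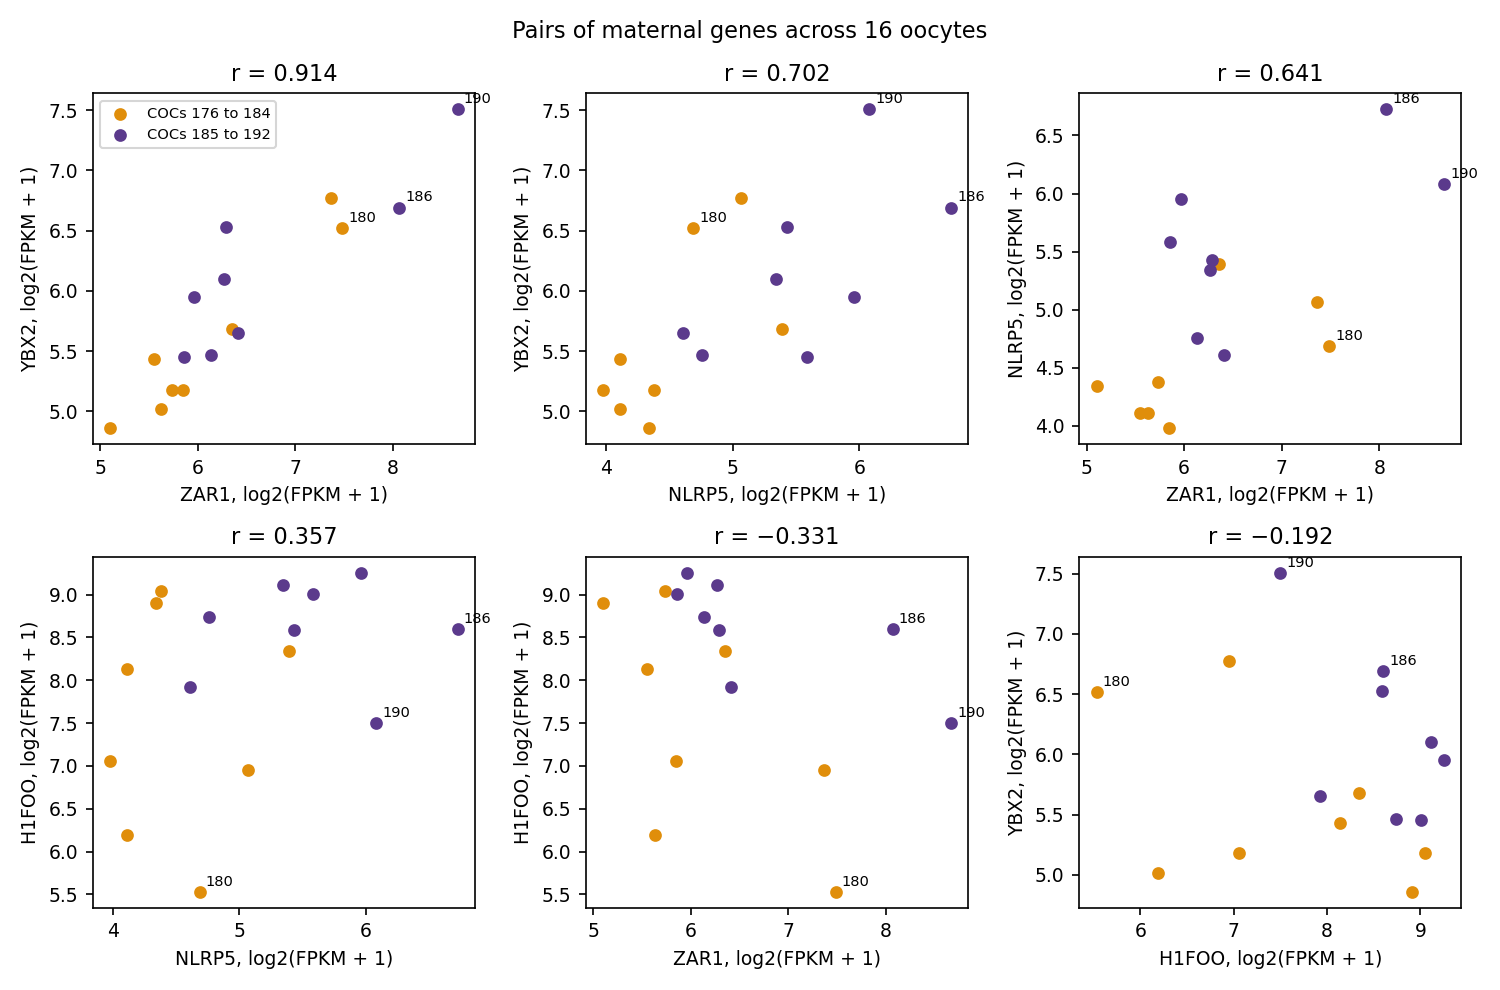
Each pair of the 4 genes across 16 oocytes, both axes log2(FPKM + 1), with Pearson's r above each panel, COCs 176 to 184 in orange and COCs 185 to 192 in purple. ZAR1 and YBX2 lie along a line (r = 0.914), and the panels with H1FOO do not, with COC 180 high in ZAR1 and lowest in H1FOO.

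H1FOO gave r = 0.357 with NLRP5, -0.331 with ZAR1 and -0.192 with YBX2, none past the threshold (adjusted permutation p = 0.252, 0.252 and 0.476), with rho of 0.362, -0.30 and -0.126. The sign and size of these 3 relations turned on how the oocytes were treated. With the number of genes partialled out, ZAR1 and H1FOO gave r = -0.621 (adjusted permutation p = 0.0157) and H1FOO and YBX2 r = -0.527 (adjusted permutation p = 0.0439), and with set means subtracted ZAR1 and H1FOO gave r = -0.581 (adjusted permutation p = 0.029). Without the 3 oocytes of lowest summed FPKM (COCs 180, 184 and 190) the values were 0.123 and 0.361, both on the other side of 0.

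H1FOO went with the number of genes in the oocyte library. Its r with the number of genes over 0.5 FPKM was 0.822 (permutation p adjusted over 8 relations = 0.0016) and rho was 0.737, against a median of 0.316 over all genes detected in oocytes, of which 3.43% had a higher r. Without the oocytes of COCs 176 and 180, r was 0.549 (permutation p = 0.0433, 14 oocytes). Within COCs 176 to 184 it was 0.883 and within COCs 185 to 192 it was 0.314, and the difference between the sets was not tested.

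The other genes gave r of 0.488 for NLRP5, 0.129 for YBX2 and 0.0273 for ZAR1 with the number of genes (adjusted permutation p = 0.0881, 0.846 and 0.966). With the summed FPKM of the library, H1FOO gave r = 0.679 (adjusted permutation p = 0.025) and rho = 0.632, and ZAR1 r = -0.602 (adjusted permutation p = 0.0399) and rho = -0.262 (adjusted permutation p = 0.519). YBX2 gave r = -0.536 (adjusted permutation p = 0.0622) and rho = -0.156, and NLRP5 r = -0.0119 (adjusted permutation p = 0.966). Within the sets r was 0.644 and 0.709 for H1FOO, -0.952 and -0.618 for ZAR1 and -0.886 and -0.631 for YBX2. H1FOO and ZAR1 did not pass the threshold without the oocytes of COCs 180 and 190, where r was 0.472 and -0.185 (permutation p = 0.0824 and 0.509). For YBX2 r was -0.151 there. The part of the summed FPKM in the r of ZAR1 and YBX2 was not tested. No relation with the relative depth passed the threshold (adjusted permutation p from 0.563 to 0.832). The part of library quality in the H1FOO level was not tested.

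**Figure D4:**
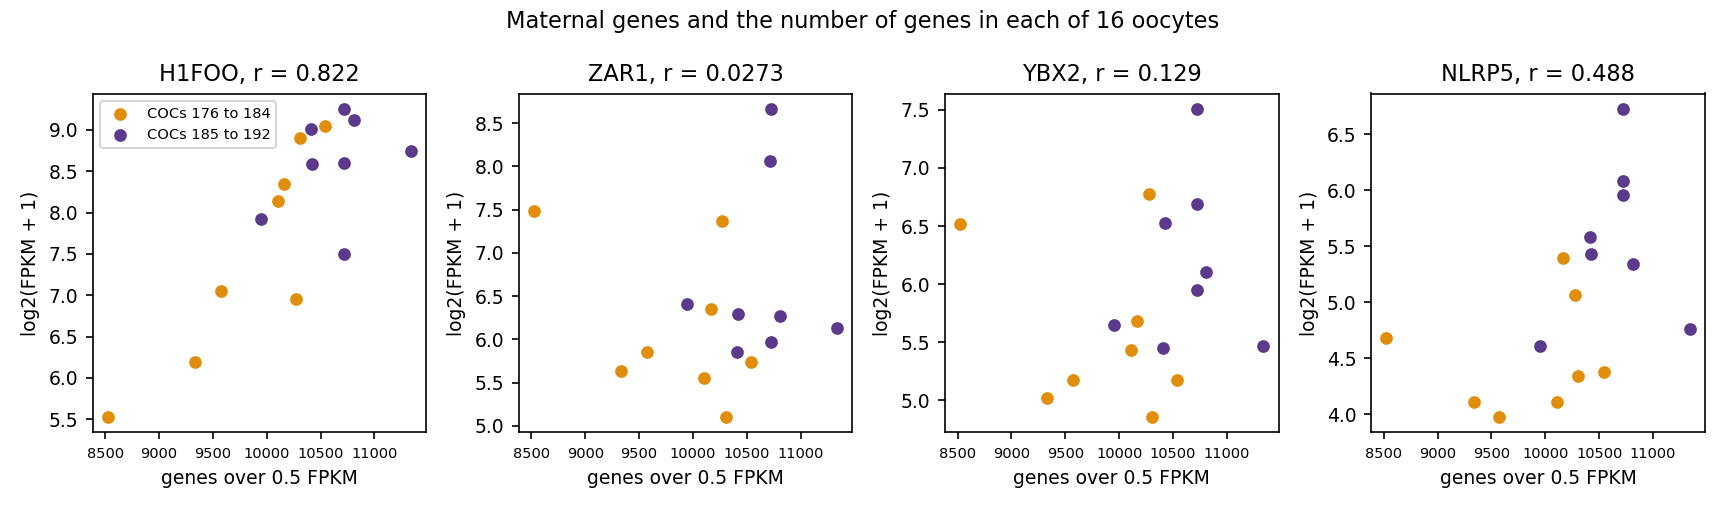
Level of each gene in 16 oocytes, as log2(FPKM + 1), against the number of genes over 0.5 FPKM in the same library, with Pearson's r above each panel. H1FOO rises with the number of genes (r = 0.822) and ZAR1 does not (r = 0.0273).

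The genes of related function were taken from 6 lists of 74 genes, covering the subcortical maternal complex and oocyte NLRP genes, mRNA storage, mRNA clearance, chromatin factors, other linker histones and oocyte transcription factors. Symbols could be matched to identifiers for 21 of them, and 16 of the 21 were matched through the study's table of genes found in oocytes alone, chosen on these samples. Their direction against cumulus cells is therefore not independent evidence. Of the 21 genes, 16 were called higher and 4 lower in oocytes than in outerCCs, where 43.4% and 34.3% of all genes were. Against innerCCs 18 were called higher (16 with the 75th percentile scaling) and 0 lower, where 63.2% and 4.53% of all genes were.

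All 5 matched genes of the complex and NLRP list were called higher than in outerCCs, where 43.4% of all genes were. NLRP9 was higher by 6.9996 ± 0.37 and NLRP14 by 6.79 ± 0.33 (log2 fold change and SE). Of the 8 mRNA storage genes 7 were called higher, among them IGF2BP3, an mRNA-binding protein, by 6.48 ± 0.27 and EIF4E1B, the cap-binding eIF4E form of oocytes, by 6.32 ± 0.36, whereas CAPRIN1, an mRNA-binding protein of many cell types, was lower by 3.13 ± 0.26. CNOT7, a deadenylase subunit, was higher by 2.18 ± 0.23, and ZFP36L2, which directs mRNAs to decay, was lower by 2.07 ± 0.33. Against innerCCs, CAPRIN1 (-0.29 ± 0.61) and ZFP36L2 (-0.29 ± 0.18) did not pass the threshold (limma, adjusted p = 0.676 and 0.142). The median over all genes in that comparison was 1.47.

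Of the 4 oocyte transcription factors 3 were called higher, with FIGLA at 6.9992 ± 0.34 and LHX8 at 5.82 ± 0.25. SMARCA4, a chromatin remodeller, was lower by 0.74 ± 0.22 than in outerCCs and higher by 1.17 ± 0.35 than in innerCCs (limma, adjusted p = 0.00228 and 0.00369). Against innerCCs the median over all genes was 1.47, above the value of SMARCA4. With the 75th percentile scaling SMARCA4 differed from innerCCs by 0.31 and was not called. The somatic linker histone H1F0 was lower in oocytes than in outerCCs, at 3.63 FPKM on average in oocytes and 40.2 FPKM in outerCCs, a difference of -3.05 ± 0.24 (limma, adjusted p = 3.38e-14). Against innerCCs, at 10.3 FPKM on average, H1F0 did not pass the threshold (-0.19 ± 0.52, limma adjusted p = 0.748, higher in 8 of 16 COCs). Of the paralogues searched by name (YBX1, YBX3, ZAR1L, H1F0, H1FX and NLRP2), H1F0 was the one that could be matched.

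Across oocytes, the listed genes had different r with the 4 genes. The correlations that follow are Pearson's r over 16 oocytes that share library and depth, given as descriptions with no test, and except for the genes above the names were chosen after the values were seen. H1FOO gave r = 0.959 with PABPN1L, an oocyte poly(A)-binding protein, 0.925 with PATL2, a repressor of translation in oocytes, and 0.904 with EIF4E1B. With the complex and NLRP genes it gave 0.906 for PADI6, 0.849 for NLRP8, 0.833 for NLRP9, 0.772 for KHDC3L and 0.736 for NLRP14, against a median of 0.318 over all genes detected in oocytes.

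NLRP5, itself a gene of that complex, gave 0.716 with NLRP8, 0.606 with PADI6, 0.318 with NLRP9, 0.135 with KHDC3L and -0.0652 with NLRP14. The median of NLRP5 over all genes detected in oocytes was 0.109. ZAR1 gave 0.0465, -0.0284, -0.393, -0.524 and -0.740 with the same 5 genes in that order, against a median of -0.101.

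ZAR1, YBX2 and NLRP5 gave positive values with PABPC1L, the poly(A)-binding protein of oocytes and early embryos (r = 0.676, 0.706 and 0.748), and with NOBOX, a transcription factor of oocytes (r = 0.592, 0.705 and 0.740). Their r with CNOT7 was -0.609, -0.682 and -0.797. H1FOO gave 0.289, 0.314 and -0.370 with PABPC1L, NOBOX and CNOT7 over all 16 oocytes, and 0.776, 0.801 and -0.644 without the 3 oocytes of lowest summed FPKM. ZAR1 and YBX2 gave negative values with BMP15, an oocyte growth factor (-0.767 and -0.722), and with WEE2, the kinase that holds the oocyte in meiotic arrest (-0.743 and -0.625), and H1FOO gave 0.749 and 0.809 with these 2 genes. IGF2BP3 gave 0.576 and 0.530 with ZAR1 and YBX2 and -0.607 with H1FOO, and these values went to -0.188, -0.241 and 0.0033 without the 3 oocytes of lowest summed FPKM.

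**Figure D5:**
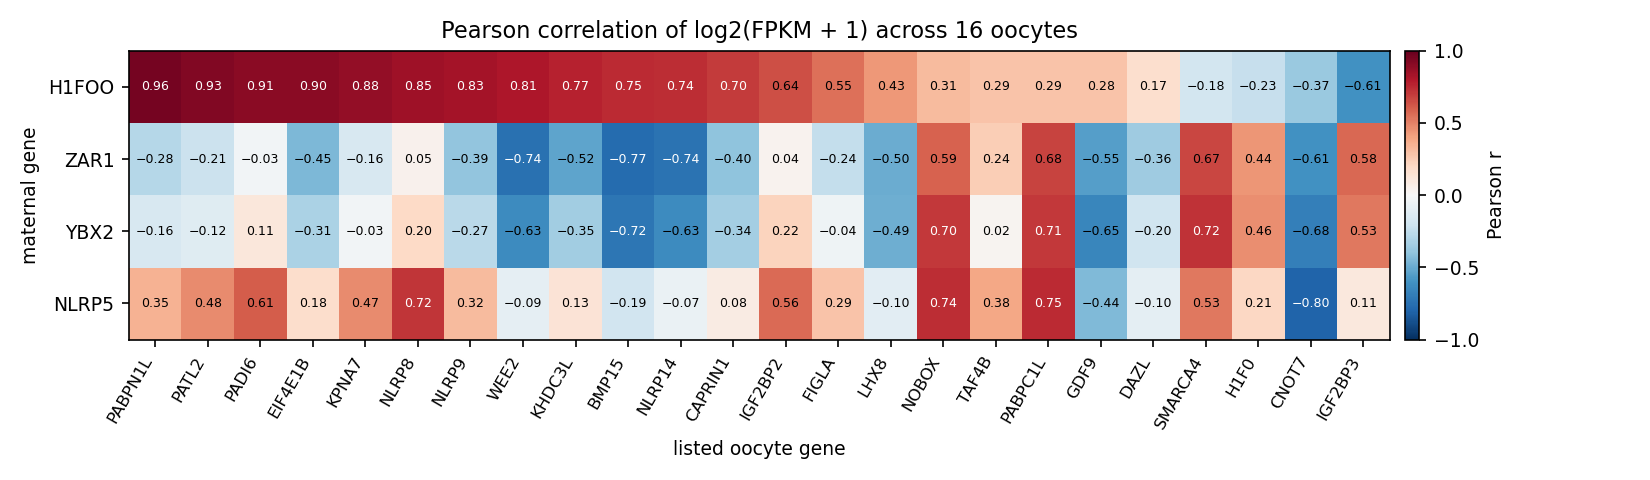
Pearson's r across 16 oocytes between the 4 genes (vertical) and 24 listed genes and oocyte markers (horizontal, ordered by r with H1FOO). H1FOO is red with PABPN1L, PATL2, PADI6 and EIF4E1B (0.959 to 0.904), where ZAR1 and YBX2 are near 0 or blue, and ZAR1, YBX2 and NLRP5 are red for PABPC1L and NOBOX and blue for CNOT7.

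Part of this pattern changed with 3 oocytes left out together or with set means subtracted. Over the 24 listed genes and oocyte markers the median r with H1FOO was 0.671 (0.318 over all genes detected in oocytes). It was 0.630 without the 3 oocytes of lowest summed FPKM and 0.618 with set means subtracted (0.233 and 0.307 over all genes). For PABPN1L the r with H1FOO was 0.979 and 0.945 in these settings. The negative values of ZAR1 were less stable. Its median over the same genes was -0.262, 0.0638 without the 3 oocytes and -0.484 with set means subtracted. Over all genes detected in oocytes the medians of ZAR1 were -0.101, 0.0670 and -0.177 in that order. Without the 3 oocytes the listed genes thus lay near the median of all genes. ZAR1 gave r = -0.552 with BMP15 and -0.551 with WEE2 without the 3 oocytes. With the same 2 genes YBX2 gave -0.491 and -0.214 there, and H1FOO 0.464 and 0.624.

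Over all genes detected in oocytes, likeness was measured with bicor, a correlation that gives less weight to outlying samples. With an absolute bicor over 0.85, H1FOO had 155 positive and 0 negative neighbours, ZAR1 76 and 70, YBX2 62 and 74, and NLRP5 67 and 3. The positive neighbours were 1.501% of the 10326 genes for H1FOO, 0.736% for ZAR1, 0.649% for NLRP5 and 0.600% for YBX2. ZAR1 and YBX2 shared 32 positive neighbours (42.1% of those of ZAR1 and 51.6% of those of YBX2) and 29 negative ones (41.4% and 39.2%). H1FOO shared 0 with each of the other 3 genes, and NLRP5 shared 3 positive ones with YBX2 and 0 with ZAR1. With sets this small, a count of 0 or 3 is not read as a difference between the genes.

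The gene most like H1FOO was GRHL3, a transcription factor of the grainyhead family, with a bicor of 0.976 over 16 oocytes and a range of 1.63 to 49.4 FPKM. The next 4 had a bicor of 0.961 to 0.972 and were known by identifier alone. The 5 genes most like ZAR1 had a bicor of 0.936 to 0.943, those of NLRP5 0.906 to 0.940 and those of YBX2 0.908 to 0.936, again without a symbol. Among the last were ENSBTAG00000006656, from 52.9 to 407 FPKM in oocytes, and ENSBTAG00000016546, from 89.8 to 365 FPKM.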

How the data were processed

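PolyA+ RNA of 48 libraries was sequenced, 1 library for each of 3 sample types in 16 COCs. The authors aligned reads to UMD3.1 with STAR 2.5.2 and discarded duplicates (Picard 2.5) and reads without a unique match. From the rest, Cufflinks 2.2.1 gave the deposited FPKM of each Ensembl gene. Reads from near-identical gene copies are therefore lost. The deposited tables carry no counts, so counting intervals were not computed. The relative depth was read from steps between FPKM values under 1, found in 1078 of 1128 pairs of libraries. Its settings were chosen while values were looked at, and it serves description only.

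The unfiltered table was used with limma 3.58.1 in R 4.3.3 (eBayes without trend, 32 libraries per comparison, pseudocount 1), and with scipy 1.17.1, pandas 2.3.3 and numpy 2.4.6 in Python 3.11.15. Figures used matplotlib 3.10.9. The limma step and the correlations were tested on simulated data. Nothing says that COCs came from separate animals, so p-values measure the spread between these COCs. The collection batch of a COC is not given in the sources used here. Libraries of 1 COC share its number, and this pairing comes from the study's design. The mean correlation of their deviations from the sample-type means was 0.0480 for oocyte and innerCC, 0.0102 for oocyte and outerCC and 0.154 for innerCC and outerCC. Gene symbols came from the study's supplementary lists.

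Named genes were the 4 genes, their matched paralogues, the 2 genes of each list with the largest change in each direction against outerCCs past the FDR, and the 5 genes of highest bicor to each of the 4. Oocyte markers were matched for 7 of 12 genes and cumulus markers for 4 of 12. The 4 genes, the lists and the markers were chosen with earlier results of these data known. Alternatives covered the COC block, the pseudocount, the filter, scaling, a covariate for the number of genes, subsets of COCs, other correlations and leaving out each oocyte.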

Additional observations from a re-analysis of the deposited data

How the results depend on the processing

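The 8 differences between oocytes and cumulus samples, whose direction the filter had set, lay between 3.57 (NLRP5 against innerCCs) and 9.26 (H1FOO against innerCCs) on the log2 scale over 10 alternatives each. The order of the 4 genes kept its calls under 18 alternatives for each step. The correlation of ZAR1 and YBX2 kept its call under 26 alternatives, from 0.808 to 0.965. Depth limits the cumulus values, many of which stand on 1 fragment.

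The replicate block (COC number) pairs the libraries of 1 COC. With it, 4 genes were called higher in innerCCs than in outerCCs against 0 without it. Scaling to a sum of 1000000 or to the same 75th percentile gave 15 such genes. With the block, lower calls in innerCCs against outerCCs went from 9620 to 9704, and lower calls in oocytes against innerCCs from 563 to 553. With 1 library of each type per COC, the block cannot change the differences of ZAR1, NLRP5, H1FOO and YBX2 (7.05 for H1FOO against outerCCs in both). It can change their SE and p alone. None of their differences between innerCCs and outerCCs was called with it. Lower calls in innerCCs against outerCCs fell from 9620 to 4 with the number of genes as covariate and to 190 in COCs 185 to 192 only. Lower calls in oocytes against innerCCs were 563, and 1063 with the 75th percentile, 2831 with the covariate, 1747 in COCs 185 to 192 and 297 without COCs 190 and 191.

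The uncalled difference of innerCCs and outerCCs changed sign for ZAR1 to 0.061 with pseudocount 0.1, 0.045 with the scaled sum, 0.0043 with the 75th percentile, 0.52 with the covariate and 0.17 without COCs 190 and 191, and lay between -0.11 and 0.23 without COC 190 or 191. For H1FOO it was 0.035 with the 75th percentile, 1.20 with the covariate, 0.066 in COCs 185 to 192, 0.17 without both COCs and -0.23 to 0.27 without either. For YBX2 it was 0.081 with the scaled sum, 0.056 with the 75th percentile, 0.68 with the covariate, 0.077 without both COCs and -0.17 to 0.17 without either. None was called.

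NLRP5 with YBX2 lost its call with linear FPKM (r = 0.599) and within the sets (0.641 and 0.644), and so did ZAR1 with NLRP5 (0.645, 0.632 and 0.620), which ranged from 0.526 to 0.720 with each oocyte left out. Given the number of genes, NLRP5 and H1FOO went to -0.0884, ZAR1 and H1FOO passed the threshold at -0.621 and H1FOO and YBX2 at -0.527. ZAR1 and H1FOO passed also with set means subtracted (-0.581). Without the 3 oocytes of lowest summed FPKM, added after seeing the data, ZAR1 and H1FOO gave 0.123 and H1FOO and YBX2 0.361. With the summed FPKM, the same 13 oocytes gave 0.247 for ZAR1, 0.328 for NLRP5, 0.278 for H1FOO and 0.366 for YBX2. The cause of these changes was not tested.

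With each oocyte left out, added after seeing the data, the relation with summed FPKM ranged from -0.825 to -0.431 for ZAR1, from -0.190 to 0.202 for NLRP5, from 0.479 to 0.813 for H1FOO and from -0.657 to -0.347 for YBX2. With the number of genes it ranged from -0.115 to 0.325 for ZAR1 and from 0.424 to 0.590 for NLRP5.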
